A study of Mus musculus with 17 samples.

Results

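Interferon-stimulated genes are the genes that cells switch on when an interferon binds its receptor. A fixed list of 34 such genes was followed by symbol through the FPKM table (fragments scaled to exon length and library size) of 35285 genes, and all 34 were found and passed the filter on low values. Total RNA had been extracted from the cochleae of 17 male wild-type C57BL/6J mice, 8 weeks old at the start. It was sequenced as mRNA libraries, 1 per mouse. The 3 control mice had no noise and were given saline. The 7 NE mice (noise exposure) heard noise of 8 to 16 kHz at 100 dB for 2 h. The 7 brimonidine mice heard the same noise and had intraperitoneal brimonidine at 1 mg/kg, an alpha-2 adrenergic agonist, which the labels place before the exposure and the study's methods place on the day before, the day of and the day after it. Tissue was taken on the second day after exposure. None of the sequenced groups received brimonidine without noise.

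Interferons signal through paired receptors and the kinases JAK1 and TYK2 or JAK1 and JAK2. Type I and type III interferons activate a complex that contains STAT2 and IRF9 and binds the interferon-stimulated response element (ISRE), whereas interferon gamma acts mainly through the gamma-activated site (GAS). The products degrade or sense viral RNA, tether or block virus particles, modify proteins with ISG15 and feed back on the pathway itself. In the cochlea these genes can be expressed by resident macrophages, supporting cells and neurons, and by blood and marrow cells that are taken with the bone.

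The ISRE is shown first because it is the letter pattern that the listed genes are best known for sharing. A RefSeq window of 250 bases upstream of the transcription start (GRCm38.p6) was found for 26 of the 34 genes. The ISRE core, spelled GAAA, then any 2 letters, then GAAA, and searched on both strands, was present in 12 of these 26 genes (46.2%) and in 936 of all 27025 genes with a window (3.46%). The GAS core TTCNNNGAA was present in 4 of 26 (15.4%) and in 8.13% of all genes. Stretches of 100 bases from 5 genes are printed in the direction of transcription, with every ISRE core in capitals (it reads TTTC, 2 letters, TTTC where it lies on the opposite strand). Oas3 is shown because it passed the test against control in both exposed groups, Isg15 because its 3 cores overlap, and Ifit1, Ifit3 and Ifit3b because they are neighbours whose cores come in pairs. The positions are chr5:120777680-120777779 (minus strand) for Oas3, chr4:156200836-156200935 (minus strand) for Isg15, and chr19:34640749-34640848, chr19:34583345-34583444 and chr19:34607741-34607840 (plus strand) for Ifit1, Ifit3 and Ifit3b.
Oas3: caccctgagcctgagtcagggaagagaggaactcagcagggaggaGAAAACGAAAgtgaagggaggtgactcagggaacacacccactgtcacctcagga
Isg15: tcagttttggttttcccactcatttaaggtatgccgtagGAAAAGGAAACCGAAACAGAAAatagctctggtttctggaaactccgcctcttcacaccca
Ifit1: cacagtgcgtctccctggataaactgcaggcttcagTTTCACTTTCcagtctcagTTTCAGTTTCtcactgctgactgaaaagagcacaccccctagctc
Ifit3: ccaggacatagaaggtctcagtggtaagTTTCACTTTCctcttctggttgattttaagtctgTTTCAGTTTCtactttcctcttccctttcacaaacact
Ifit3b: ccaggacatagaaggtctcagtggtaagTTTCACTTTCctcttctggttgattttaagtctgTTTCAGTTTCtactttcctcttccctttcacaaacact

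The stretches of Ifit3 and Ifit3b were identical in every letter, and their windows shared a run of 169 identical bases. The transcripts of the pair are also alike: 41.1% of the 75-base stretches of Ifit3 occurred in Ifit3b transcripts, so reads could be split between them and the values of both are uncertain. The same holds for Oas1a, which shared 47.6% of its stretches with Oas1g, for Herc6, which shared 22.4% with the gene model Gm45193, and for Rtp4, which shared 12.4% with Gm45338. For the other listed genes the share was at most 5.44%.

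The libraries held 14457734 to 16080796 counted fragments in the control group, 15769234 to 18288854 in the NE group and 16624436 to 18224925 in the brimonidine group. The listed genes drew between 56 fragments (the lowest library for Mx2) and 6837 fragments (the highest for Ifitm3). The labels give the cell type as interstitial cells, but markers of many cell types were read. Cochlear epithelial and stromal markers summed to between 501 and 1234 FPKM, and 6 hair cell markers to between 9.04 and 17.4, with Slc26a5 (prestin) and Tecta under 1 FPKM in every library. Neutrophil markers summed to between 10057 and 66943 FPKM. Control 2 stood apart from the other libraries: its 11 neutrophil markers summed to 10057 FPKM against 45088 in control 1 and 47514 in control 3, and its 6 cerebellar neuron markers to 382 FPKM against 140 and 146. The cerebellar sum was 17.0 to 23.2 in the NE group and 17.8 to 54.6 in the brimonidine group, with brimonidine 5 the highest of the exposed libraries. None of these neutrophil or cerebellar markers was at 0 in a whole group. In such bulk RNA, fewer cells of a type and less RNA per cell cannot be told apart.

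Levels differed by over 2 orders of magnitude between the genes, and FPKM allows this comparison because it is per length. Ifitm3, whose membrane protein hinders the entry of viruses, had the highest mean over the 17 libraries (447 FPKM), followed by Ifi27l2a (93.0 FPKM) and Bst2, or tetherin (55.8 FPKM). The lowest means were those of Ifi44 (1.29 FPKM), Mx2 (1.5 FPKM) and Herc6 (2.02 FPKM). Within a group, the widest spread on the log2(FPKM + 1) scale was that of Gbp2 (1.74), Rsad2 (1.64) and Ifitm3 (1.53). For the mean of log2(FPKM + 1) over the 34 genes, the controls stood at 3.74, 3.40 and 3.69, the NE libraries at 3.85 to 4.22 with a median of 4.02, and the brimonidine libraries at 3.70 to 4.16 with a median of 3.97. The control and NE ranges of this mean did not overlap, whereas brimonidine 5 lay among the controls. Control 2 was the lowest of all 17 libraries for 21 of the 34 genes.

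**Figure D1:**
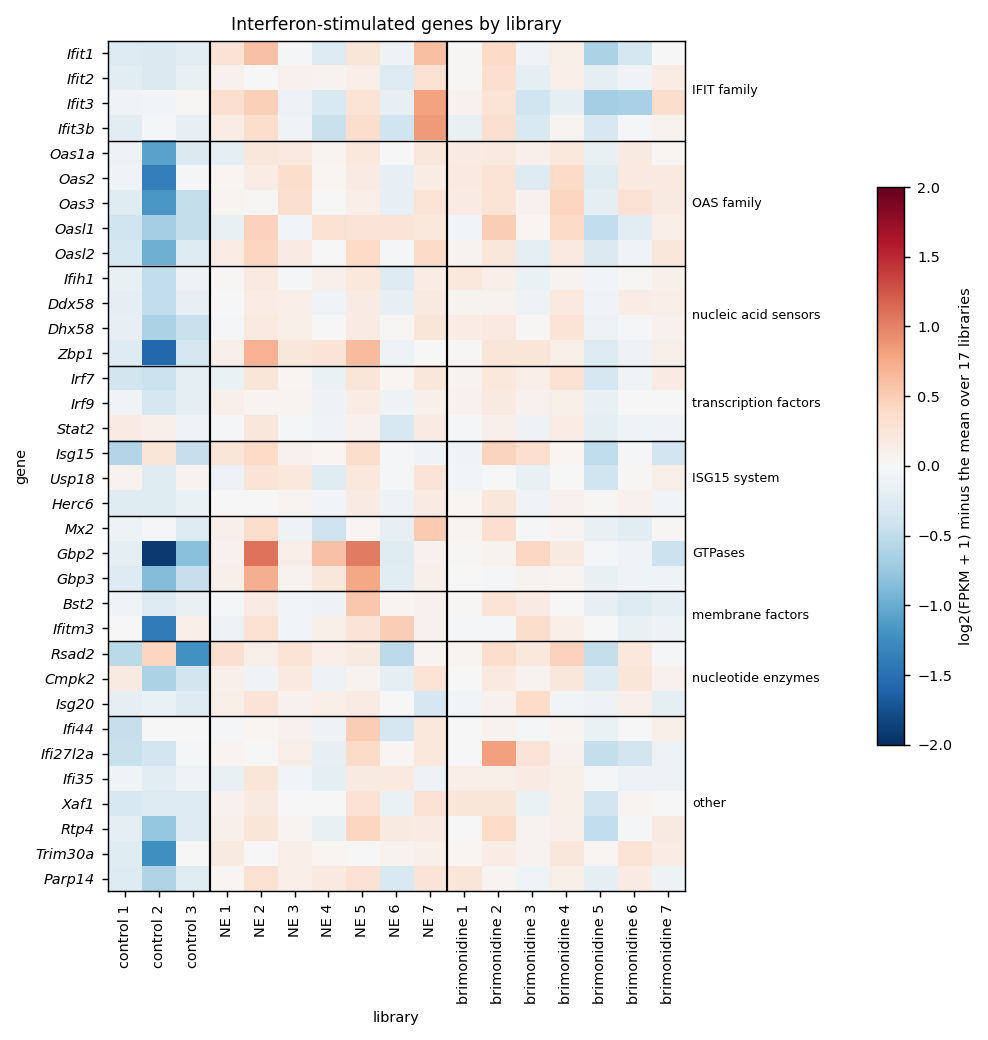
Level of the 34 genes (rows, grouped by role) in each of the 17 libraries (columns), as log2(FPKM + 1) minus the gene's mean over all libraries; vertical lines separate control, NE and brimonidine. Control 2 is the bluest column for the OAS family, Zbp1, Gbp2, Ifitm3 and Trim30a but not for Isg15 and Rsad2, and brimonidine 5 is the lowest brimonidine library for 22 genes.

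NE against control asks how the cochlea differs after noise. Of the 34 genes, 11 were higher in the NE group at an adjusted p under 0.05 (limma on log2(FPKM + 1), Benjamini-Hochberg over 15950 genes) and 0 were lower, where 2.12% of all genes tested were higher. The fold change was above 0 for 33 of the 34 genes (43.9% of all genes), with Stat2 the exception, and the median log2 fold change was 0.40 against -0.04 over all genes. The changes were small: 1 gene, Gbp2, also reached a difference of 1 on the log2(FPKM + 1) scale (0.27% of all genes were higher by both criteria). This count was 0 to 2 when 1 library was left out. The study set its 2-fold threshold on DESeq2 fold changes, which are a different measure. The lowest NE library lay above the highest control for 11 genes (3.24% of all genes). Leaving out 1 library moved the count of genes past the test to 4 without NE 2, where 0.979% of all genes were higher, and to 5 without control 2 (0.875%), NE 5 (1.19%) or NE 7 (0.979%). The count was 6 without NE 1 (1.04%) and 7 without NE 3 (1.22%) or NE 4 (0.882%). It was 10 without control 3 (2.01%), 13 without control 1 (7.94%) and 14 without NE 6 (2.47%). Without control 2, the 5 genes were Oasl1, Dhx58, Oasl2, Isg15 and Rsad2 (0.875% of 15431 genes were higher), and the median was 0.29. The calls of Oasl1, Dhx58 and Oasl2 held whichever single library was left out. Those of Xaf1, Parp14, Gbp2 and Gbp3 were lost without control 2, NE 1, NE 2, NE 5 or NE 7 and without some of the other libraries, at limma adjusted p-values of 0.0501 to 0.179.

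The OAS family makes or resembles the enzymes that synthesise 2-5A, the activator of RNase L. In the NE group 3 of 5 members rose, where 2.12% of all genes tested were higher. Oasl1, which in mice restrains the translation of Irf7, read 3.74, 2.85 and 3.46 FPKM in the controls and 4.59 to 7.58 with a median of 6.44 in the NE libraries. Every NE library lay above every control. Its log2 fold change was 0.70 ± 0.13 (SE; limma adjusted p = 0.00576), and the mean went from 3.35 ± 0.45 (SD, n = 3) to 6.13 ± 1.03 FPKM (SD, n = 7). Oasl2 read 15.4, 9.61 and 16.2 FPKM in the controls and 19.3 to 27.1, median 22.4, after noise, again without overlap (log2 fold change 0.75 ± 0.16, limma adjusted p = 0.0123). Oas3, the large family member that makes 2-5A, read 14.8, 7.35 and 12.5 FPKM in the controls and 15.8 to 22.3, median 18.4, in the NE group. The groups were apart, with control 2 far below its fellows, and the log2 fold change of 0.72 ± 0.17 (limma adjusted p = 0.0211) was 0.45 without control 2 (limma adjusted p = 0.0563). Oas1a and Oas2 did not pass: their log2 fold changes of 0.59 each were 0.30 and 0.15 without control 2.

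Among the sensors of foreign nucleic acid, 2 of 4 rose (2.12% of all genes), Dhx58 and Zbp1, and without control 2 Dhx58 alone passed. Dhx58 encodes LGP2, a RIG-I-like receptor without a signaling domain that tunes the other receptors. It read 6.66, 4.51 and 5.28 FPKM in the controls and 7.35 to 9.07, median 8.24, in the NE libraries, with no overlap. Its log2 fold change was 0.51 ± 0.11 (limma adjusted p = 0.00912), and it was 0.40 without control 2 (limma adjusted p = 0.0389). Zbp1, which binds Z-form nucleic acid and can start cell death, read 10.7, 3.73 and 10.1 FPKM in the controls and 12.1 to 21.6, median 15.5, after noise. It was the last of the 11 genes to pass, with NE 2 and NE 5 the highest, and its log2 fold change of 0.98 was 0.56 without control 2 (limma adjusted p = 0.14). Ddx58, the gene of RIG-I itself, had a log2 fold change of 0.33 (limma adjusted p = 0.0577) although its NE libraries, at 9.75 to 12.6 FPKM, all lay above the controls, at 9.62, 7.6 and 9.71. Ifih1, which encodes MDA5, had a log2 fold change of 0.31 with overlapping groups.

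Of the interferon-activated transcription factors, 1 of 3 rose (2.12% of all genes), and 0 of 3 passed without control 2. Irf7, the amplifier of type I interferon transcription, read 13.6, 12.9 and 15.3 FPKM in the controls and 16.1 to 21.2, median 18.3, in the NE group. All NE libraries were above all controls (log2 fold change 0.41 ± 0.11, limma adjusted p = 0.0309). Without control 2 the value was 0.36 (limma adjusted p = 0.12), and the call was also lost without control 1, NE 2, NE 5 or NE 7, at limma adjusted p-values of 0.0536 to 0.0583. Irf9 and Stat2, which act together at the ISRE, gave smaller values, 0.23 for Irf9 (limma adjusted p = 0.0913) and -0.06 for Stat2 (limma adjusted p = 0.755). Stat2 overlapped across the groups, at 14.8 to 17.8 FPKM in the controls and 12.5 to 18.6 in the NE libraries.

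Of the GTPases, 2 of 3 rose (2.12% of all genes) and 0 of 3 passed without control 2. Both that rose were guanylate-binding proteins, which respond strongly to interferon gamma and attack the vacuoles of intracellular pathogens. Gbp2 read 34.3, 9.53 and 21.3 FPKM in the controls and 32.5 to 83.8, median 42.5, in the NE libraries. NE 2 and NE 5 stood above 80 FPKM while NE 6 fell below control 1, so the groups overlapped. The log2 fold change, 1.37 ± 0.38 (limma adjusted p = 0.0366), was the largest of the 34; it was 0.90 without control 2 (limma adjusted p = 0.179) and 1.77 without control 1. Gbp3 read 12.4, 7.75 and 10.6 FPKM in the controls and 12.6 to 26.3, median 16.2, after noise, with NE 5 and NE 2 again the highest. Its log2 fold change was 0.78 ± 0.22 (limma adjusted p = 0.0379), and 0.61 without control 2 (limma adjusted p = 0.179). Mx2, a dynamin-like GTPase annotated as a polymorphic pseudogene in these mice, read 1.05 to 1.40 FPKM in the controls and 0.847 to 2.53 in the NE group (log2 fold change 0.18).

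The other 3 genes to pass were Rtp4, Xaf1 and Parp14. Rtp4, a chaperone of receptors, read 16.0, 10.3 and 14.9 FPKM in the controls and 16.3 to 24.98, median 20.6, in the NE libraries (log2 fold change 0.55 ± 0.14, limma adjusted p = 0.0278). It was 0.37 without control 2 (limma adjusted p = 0.119), and the call was also lost without NE 2 or NE 7 (limma adjusted p = 0.0549 and 0.0519). Xaf1, which binds the apoptosis inhibitor XIAP, had tight controls of 4.40, 4.58 and 4.59 FPKM and NE libraries of 5.15 to 7.24, median 6.16. The groups of both genes were apart. For Xaf1 the log2 fold change was 0.39 ± 0.10 (limma adjusted p = 0.0286) and did not shrink without control 2 (0.39, limma adjusted p = 0.0746). Parp14, an ADP-ribosyltransferase, read 9.51, 7.31 and 9.67 FPKM in the controls and 9.26 to 14.6, median 13.5, in the NE group, where NE 6 alone overlapped the controls (log2 fold change 0.50 ± 0.14, limma adjusted p = 0.0338, and 0.39 without control 2, limma adjusted p = 0.156). Herc6, the main mouse ligase for ISG15, did not pass (limma adjusted p = 0.107), although its 3 controls, at 1.55 to 1.75 FPKM, all lay below the NE libraries, at 1.81 to 2.36.

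**Figure D2:**
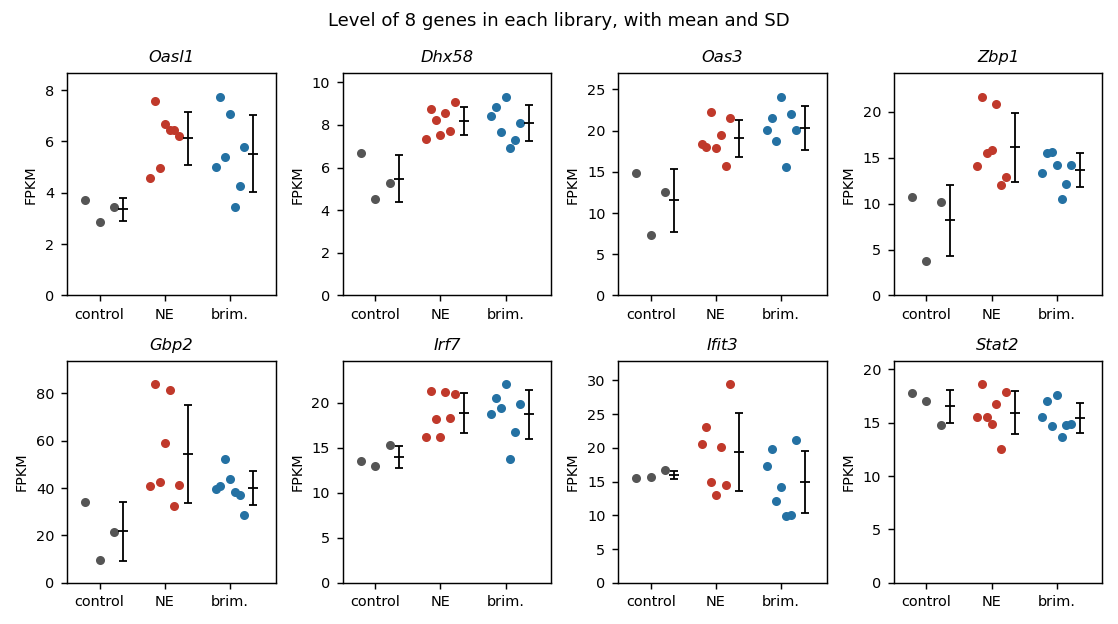
FPKM of 8 genes in each library (points) of the control, NE and brimonidine groups, with the mean and SD as a bar at the right of each group; each vertical axis starts at 0. Oasl1, Dhx58, Oas3, Zbp1 and Irf7 have every NE library above every control, Gbp2 has NE 2 and NE 5 above 80 FPKM, and Ifit3 and Stat2 overlap in all groups.

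Several genes widely used as readouts of type I interferon did not pass the test with all libraries. In the IFIT family, whose products bind viral RNA ends, 0 of 4 members passed in the NE group. Of all genes, 14.1% passed in either direction but only 2.12% were higher, so a count of 0 in so short a list is close to that share. The log2 fold changes were 0.45 for Ifit1, 0.28 for Ifit2, 0.21 for Ifit3 and 0.24 for Ifit3b. Ifit3 read 15.5, 15.7 and 16.7 FPKM in the controls and 13.0 to 29.4, median 20.04, in the NE libraries, which straddled the narrow control range. NE 7 was the highest NE library for all 4 members of the family. Of the ISG15 system, 0 of 3 members passed. Isg15 read 19.3, 35.2 and 21.1 FPKM in the controls and 28.1 to 39.4, median 31.6, in the NE group. Control 2 was here the highest control and lay inside the NE range. With it the log2 fold change was 0.42 (limma adjusted p = 0.127), and without it 0.68 (limma adjusted p = 0.0117). Usp18, the protease that removes ISG15 and damps the receptor, had a log2 fold change of 0.11.

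Rsad2, or viperin, which makes a chain-terminating nucleotide, also had control 2 as its highest control. The 3 controls read 11.1, 22.6 and 6.56 FPKM and the NE libraries 11.1 to 20.8, median 18.2. The log2 fold change was 0.51 with all libraries (limma adjusted p = 0.24) and 0.95 without control 2 (limma adjusted p = 0.0288). For Ifitm3 control 2 lay at the other end, at 165 FPKM against 431 and 477 in the other controls and 402 to 613 in the NE group. The Ifitm3 fold change, 0.58 with control 2 and 0.10 without it, passed in neither case (limma adjusted p = 0.194 and 0.794). Of the remaining genes, Cmpk2 (a mitochondrial nucleotide kinase), Isg20 (an exonuclease), Bst2, Ifi27l2a, Ifi44, Ifi35 and Trim30a had log2 fold changes from 0.14 to 0.56 and did not pass. Without control 2 the range was 0.10 to 0.34, with Trim30a at 0.19 in place of 0.56 and Cmpk2 at 0.14 in place of 0.32.

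Marker levels of other cell types also differed between the groups or set control 2 apart. T and NK cell markers summed to 32.9 FPKM in control 2 and to 106 and 87.5 in the other controls. They summed to 89.2 to 124 in the NE group and 93.9 to 117 in the brimonidine group. Control 2 had the highest Schwann cell sum (265 FPKM, against 82.5 to 157 in the NE group) and osteoblast sum (1326, against 609 to 1179). Monocyte and macrophage markers (9 genes, none at 0 in a whole group) summed to 535, 355 and 511 FPKM in the controls, 583 to 691 in the NE group and 575 to 686 in the brimonidine group. All 3 controls lay below all exposed libraries. Of the 9 markers 1, Csf1r, was called higher in the NE group (2.12% of all genes) and 0 of 9 without control 2 (0.875%). In brimonidine against control 3 of the 9 were called higher (3.47% of all genes), Csf1r, Adgre1 and Ccr2, and 2 of 9 without control 2 (2.02%). The 11 neutrophil markers had a median log2 fold change of 0.76 in NE against control and 0.06 without control 2. In either, 0 of 11 were called (2.12% and 0.875% of all genes were higher). The 6 cerebellar markers were all called lower in the NE group (12% of all genes were lower), with a median of -3.84, and the 4 of them still tested without control 2 were called lower with a median of -3.38. Central glia markers (5 genes, 4 of them tested) summed to 44.8 to 90.3 FPKM in the controls and 33.1 to 47.4 in the NE group. Of the 4 tested, 3 were called lower (12% of all genes). Without control 2 it was 2 of 4, where 1040 of 15431 genes were called in either direction. Markers of plasmacytoid dendritic cells, which are strong producers of type I interferon, summed to 15.1, 27.7 and 15.0 FPKM in the controls, 23.0 to 38.4 in the NE group and 18.4 to 39.0 in the brimonidine group (3 genes, with Ccr9 under 1 FPKM in every library). Of the 2 tested, 0 were called in NE against control. Without control 2, 1 was called higher, Cox6a2 (log2 fold change 0.81, limma adjusted p = 0.0296, where 0.875% of all genes were higher). In brimonidine against control without control 2 it was Siglech (0.86, limma adjusted p = 0.00695, where 2.02% were higher). Erythroid markers (8 genes, none at 0 in a whole group) summed to 10876 FPKM in control 2, 2910 and 1784 in the other controls, 2180 to 6064 in the NE group and 2839 to 5938 in the brimonidine group. With all libraries 0 of 8 were called against control, at medians of -0.14 for NE and -0.08 for brimonidine. Without control 2 all 8 were above 0 in both, at medians of 0.52 and 0.69; 0 of 8 were called in the NE group and 1, Slc4a1, in the brimonidine group (0.95, limma adjusted p = 0.0344; 2.02% of all genes). Of 5 endothelial markers 0 were called with all libraries. Kdr was called higher in brimonidine against control without control 2 (0.36, limma adjusted p = 0.0453, 2.02% of all genes). Plasma cell markers summed to 133 to 626 FPKM in the controls and 446 to 1158 in the NE group, and 0 of 5 were called (2.12% of all genes were higher). The part of these cell types in the values of the interferon-stimulated genes was not tested.

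**Figure D3:**
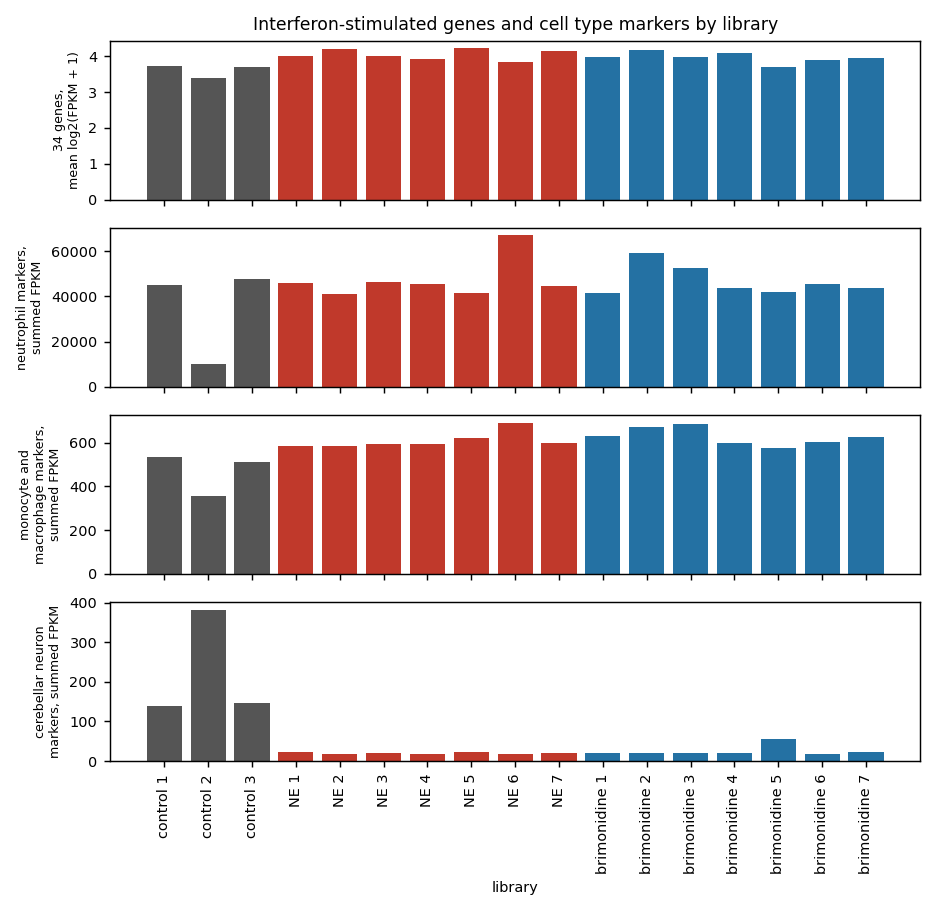
Bars give, for each library, the mean log2(FPKM + 1) of the 34 genes and the summed FPKM of neutrophil, monocyte and macrophage, and cerebellar neuron markers, in grey for control, red for NE and blue for brimonidine. Control 2 has the lowest mean of the 34 genes (3.40), the lowest neutrophil sum (10057) and the highest cerebellar sum (382).

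Brimonidine against NE asks whether the drug altered these genes in noise-exposed cochleae. None was called: 0 of 34 passed the adjusted threshold in limma, where 1 of 15707 genes did (0.00637%). At an unadjusted p under 0.05 there was 1 gene, Gbp3, lower in the brimonidine group (2.46% of all genes were lower at that level). The fold change was above 0 for 10 genes (57.7% of all genes) and below 0 for 24, with a median of -0.04 against 0.01 over all genes. On the log2(FPKM + 1) scale, the 95% interval held no difference beyond 0.585 in either direction for 31 of the 34 genes. For Gbp2, Ifit3 and Ifit1 it reached further down. This limit is a 1.5-fold change of FPKM + 1. It does not bound the change in FPKM itself at 1.5-fold, least of all for genes at low FPKM. Equality of the 2 groups was not tested.

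Gbp3 read 12.6 to 26.3 FPKM, median 16.2, in the NE group and 13.3 to 15.8, median 14.7, in the brimonidine group. The brimonidine libraries formed a narrow band below the NE mean, inside the NE range. The log2 fold change was -0.28 (95% interval -0.56 to -0.01, limma adjusted p = 0.857), and -0.20 without NE 5. Gbp2 read 28.5 to 52.3 FPKM, median 39.5, in the brimonidine group against 32.5 to 83.8 after noise alone, a log2 fold change of -0.37 (95% interval -0.79 to 0.05, limma adjusted p = 0.872). Zbp1 was likewise below the NE mean in all 7 brimonidine libraries, at 10.6 to 15.6 FPKM, and overlapped the NE range of 12.1 to 21.6 (log2 fold change -0.21, 95% interval -0.47 to 0.06, limma adjusted p = 0.881). For these 3 genes NE 2 and NE 5 were the highest libraries of all 17.

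Oasl2 read 16.1 to 23.5 FPKM, median 21.0, in the brimonidine group against 19.3 to 27.1 in the NE group (log2 fold change -0.19, 95% interval -0.41 to 0.03, limma adjusted p = 0.872). Ifit3 read 9.83 to 21.1 FPKM, median 14.2, against 13.0 to 29.4 (log2 fold change -0.36, 95% interval -0.78 to 0.07, limma adjusted p = 0.875). All 4 IFIT members had values below 0 in this comparison, from -0.03 for Ifit2 to -0.36 for Ifit3, and none passed. Dhx58, Irf7, Oas1a, Oas2, Ddx58 and Ifih1 differed by at most 0.02 on the log2 scale. For Dhx58 the interval ran from -0.15 to 0.12 and for Oas3, whose log2 fold change was 0.08, from -0.10 to 0.27.

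**Figure D4:**
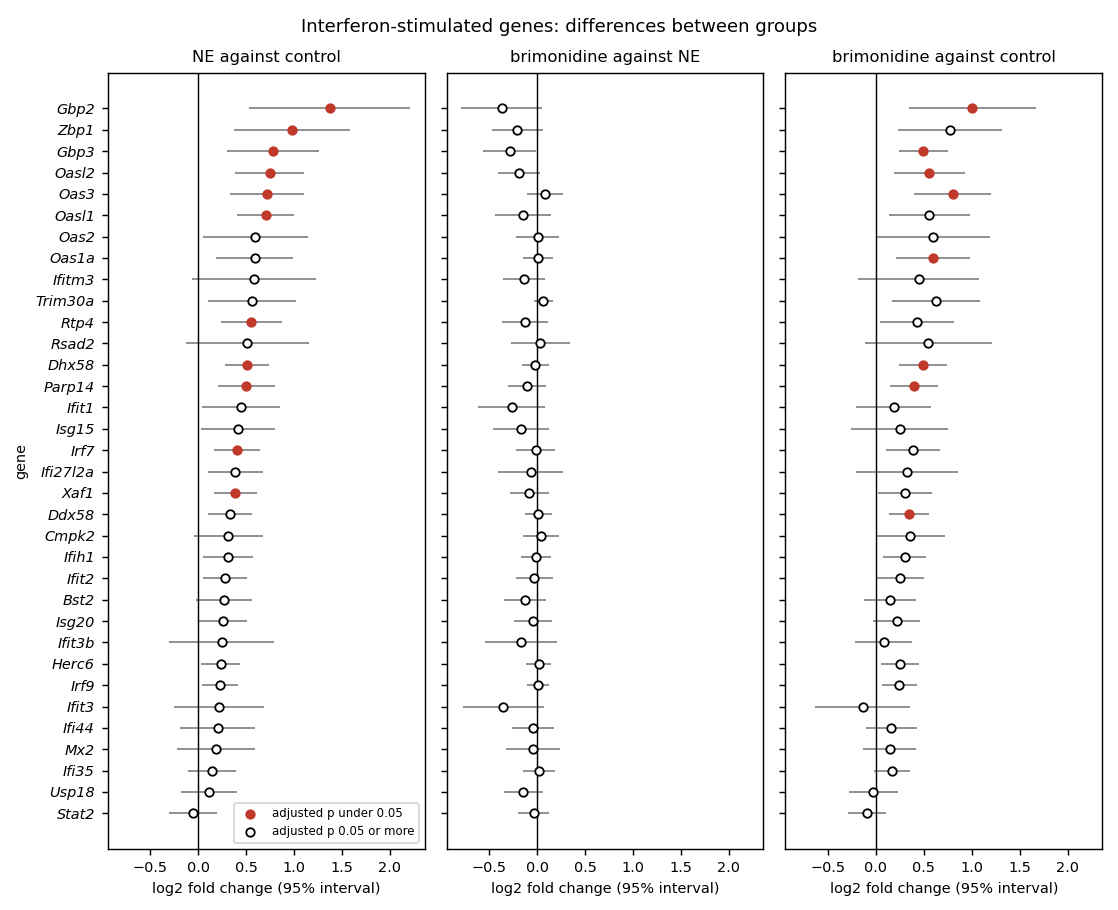
Log2 fold change on the log2(FPKM + 1) scale (points) and its 95% interval from limma (lines) for the 34 genes in the 3 comparisons; filled points have an adjusted p under 0.05. Points lie to the right of 0 for 33 genes in NE against control and for 31 in brimonidine against control, whereas in brimonidine against NE no point is filled.

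Brimonidine against control uses the same 3 control libraries as NE against control, so the comparisons are not independent. In it, 8 of the 34 genes were higher at an adjusted p under 0.05 in limma (3.47% of 15947 genes) and 0 were lower. The fold change was above 0 for 31 genes (45.8% of all genes), the exceptions being Ifit3 (-0.14), Stat2 (-0.09) and Usp18 (-0.03), and the median was 0.33 against -0.03 over all genes. The groups were apart for 7 genes (5.07% of all genes). The count was 3 without control 2 (Oas3, Gbp3 and Rsad2, where 2.02% of all genes were higher), 13 without control 1 (11.4%) and 9 without control 3 (3.21%). It was 3 without brimonidine 1 (1.47%), brimonidine 2 (1.89%), brimonidine 4 (1.37%) or brimonidine 6 (1.44%). It was 4 without brimonidine 3 (2.38%), 5 without brimonidine 7 (2.29%) and 12 without brimonidine 5 (2.25%). It was 7 when control 2 and brimonidine 5 were both left out (1.59% of all genes), an alternative chosen after seeing the data.

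Oas3 had the smallest p, at 15.6 to 24.1 FPKM, median 20.1, in the brimonidine group, all above the controls (log2 fold change 0.80 ± 0.18, limma adjusted p = 0.0144, and 0.53 without control 2). Dhx58 read 6.89 to 9.30 FPKM, also apart from the controls (0.49 ± 0.11, limma adjusted p = 0.0154). Gbp3 was apart as well (0.50 ± 0.11, limma adjusted p = 0.0159, and 0.33 without control 2, limma adjusted p = 0.0278). Side by side, the NE and brimonidine values against control were 0.72 and 0.80 for Oas3, 0.51 and 0.49 for Dhx58, and 0.78 and 0.50 for Gbp3. Ddx58 rose by 0.34 ± 0.09 (limma adjusted p = 0.0346) and Parp14 by 0.40 ± 0.11 (limma adjusted p = 0.0394), both without overlap with the controls. Oas1a (0.60 ± 0.17, limma adjusted p = 0.0425), Gbp2 (1.00 ± 0.30, limma adjusted p = 0.0462) and Oasl2 (0.56 ± 0.17, limma adjusted p = 0.0468) overlapped them. Without control 2 the log2 fold change was 0.53 for Gbp2, 0.31 for Oas1a, 0.34 for Oasl2, 0.38 for Dhx58, 0.24 for Ddx58 and 0.28 for Parp14, and none of these 6 passed (limma adjusted p = 0.0596 to 0.172). Oas3 and Gbp3 passed whichever single library was left out.

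The interferon genes that could be read were near the limit of detection. Of 11 interferon genes looked for, 8 were matched and Ifna1, Ifna5 and Ifna13 were not, so Ifna2 and Ifna4 were the only alpha interferons read. Of the 8 matched, 0 passed the filter on low values. The 7 other than Ifng drew 13 fragments over all 17 libraries, with at most 3 in 1 library, and Ifnb1 drew 1 fragment, in an NE library. Ifng drew 60 fragments, at most 12 in 1 library and 0.529 FPKM at its highest. A fragment of Ifng was read in 1 of 3 control, 7 of 7 NE and 7 of 7 brimonidine libraries, a difference that was not tested because the gene did not pass the filter.

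Receptors were well expressed and 0 of 6 passed in NE against control. Ifngr1, a chain of the interferon gamma receptor, averaged 53.6 FPKM in the controls and 76.7 in the NE group (log2 fold change 0.59, limma adjusted p = 0.0875), and Ifnar2, of the type I receptor, 17.9 and 23.0 (0.37, limma adjusted p = 0.0636). Ifnar1, Ifngr2, Ifnlr1 and Il10rb had log2 fold changes of 0.11, 0.08, 0.34 and 0.08. Without control 2 the value was 0.22 for Ifngr1, 0.17 for Ifnar2, 0.07 for Ifnar1, -0.18 for Ifngr2, -0.05 for Ifnlr1 and 0.01 for Il10rb, and 0 of 6 passed. Of the receptors, of the inhibitors (0 of 6) and of the upstream sensing genes (0 of 11) none passed. Of all genes, 14.1% passed in either direction and 2.12% were higher, so counts of 0 in these short lists are close to the share that was higher. Among the interferon regulatory factors outside the 34 genes, 1 of 5 rose in the NE group (2.12% of all genes), Irf5 (0.42, limma adjusted p = 0.0472). Without control 2 its value was 0.25 (limma adjusted p = 0.183) and 0 of 5 passed, and the call was also lost without control 3 or any NE library but NE 6, at limma adjusted p-values of 0.0576 to 0.0886. In brimonidine against control, where 3.47% of all genes were higher, 2 of the 5 regulatory factors rose, Irf5 (0.58, limma adjusted p = 0.0101) and Irf8 (0.69, limma adjusted p = 0.0142). Both passed without control 2. Over 20 alternative runs the call was lost in 1 for Irf5 and in 2 for Irf8. With 1 library left out, Irf8 was lowest without control 3 (0.48). Of the 11 sensing genes 2 rose there, Tlr7 (0.50, limma adjusted p = 0.00615) and Tbk1 (0.24, limma adjusted p = 0.0462). Without control 2 Tlr7 alone passed, and Tbk1 was at 0.16 (limma adjusted p = 0.119); the Tbk1 call was also lost without control 3 or any 1 of the brimonidine libraries, at limma adjusted p-values of 0.0583 to 0.0875. No gene of these lists was called in brimonidine against NE (0.00637% of all genes).

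A further list of interferon-stimulated genes outside the 34 gave 18 of 66 tested genes higher in the NE group (2.12% of all genes) and 0 lower. The median log2 fold change was 0.46 against -0.04 over all genes. Like the 34, this list was chosen with earlier results of these data known, so it is not independent support. Without control 2 the count was 7 (0.875% of all genes) and the median 0.33 against -0.01. The lowest adjusted p was that of Slfn5, a Schlafen family gene, which went from 4.97 ± 0.27 FPKM (SD, n = 3) to 8.65 ± 1.04 (SD, n = 7; log2 fold change 0.69, limma adjusted p = 0.00142). Parp10 (0.64), Trim34a (0.45), the peptide transporter subunit Tap2 (0.54) and Epsti1 (0.50) followed, of which Epsti1 did not pass without control 2 (0.38, limma adjusted p = 0.0523). In brimonidine against control 25 of 67 were higher (3.47% of all genes), and 12 without control 2 (2.02%). In brimonidine against NE 0 of 67 were called.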

How the data were processed

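The deposited table holds FPKM per gene and library, which the authors computed from mRNA libraries made with a stranded kit. The labels name mm10, Trimmomatic, HISAT2, Cufflinks and HTSeq. Versions and strand settings are not given in the sources used here. FPKM multiplied by exon length gave whole fragments (within 0.02) for 34976 of 35029 genes above 0 (99.8%), and these gave the depth and an alternative fit. The length was that of GENCODE M21 for 32425 genes, all 34 described here included, and was solved from the values for the others.

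The 34 genes and all other lists were chosen with earlier results of these data known. Groups came from the sample titles, and each library was 1 mouse. Genes that reached 1 FPKM in 3 or more of a comparison's libraries were fitted in limma 3.58.1 (R 4.3.3) on log2(FPKM + 1), with a trended prior variance, a model of the 2 groups alone, and p-values adjusted by Benjamini-Hochberg across every gene tested. Fold changes are differences on that scale and understate the change of low genes. The steps were tested on simulated data. Members called in a comparison with control were described up to 10 by smallest p, and in brimonidine against NE the 5 with the smallest p. An exact two-sided permutation test over libraries cannot go below p = 0.00833 for 7 against 3. Its values are not printed for single genes, since limma was the main test. Alternatives covered the pseudocount (0.1), the filter, scaling, all libraries in 1 model, array weights, a replicate block, voom on the recovered fragments, and leaving out each library. Promoter windows came from RefSeq (GRCm38.p6). A list of signaling genes is not reported here.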

Additional observations from a re-analysis of the deposited data

Results flagged for a closer look

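Rsad2 in NE 6 read 11.1 FPKM, while the other 6 NE libraries read 17.1 to 20.8; the gap to the nearest was 0.613 of the group's range, above Dixon's 95% critical value of 0.568 for 7 libraries. Bst2 in NE 5 read 80.7 FPKM against 51.6 to 62.1 in the other NE libraries, a gap of 0.637 of the range. These were 2 of 70 groups of 7 libraries examined, and chance flags about 1 in 20.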

How the results depend on the processing

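The direction of the median over the 34 genes held in every alternative run: 0.29 to 0.43 when 1 library was left out and 0.31 to 0.52 otherwise for NE against control, 0.24 to 0.39 and 0.24 to 0.43 for brimonidine against control, and -0.09 to -0.01 and -0.08 to -0.03 for brimonidine against NE. The counts of genes past the adjusted threshold in limma moved more. For NE against control (11 genes) the count was 7 without the filter on low values (0.598% of all genes were higher), 19 after rescaling by the median ratio (4.58%), 17 with all 17 libraries in 1 model (8.37%), 21 with array weights (14.3%), and 4 to 14 when 1 library was left out (0.979% without NE 2 and 2.47% without NE 6). For brimonidine against control (8 genes) it was 4 without the filter (0.922%), 15 with all libraries in 1 model (10.2%), 17 with array weights (18.7%), and 3 to 13 when 1 library was left out (1.37% without brimonidine 4 and 11.4% without control 1). In brimonidine against NE the count was 0 in every alternative run, with 0 to 5 genes at an unadjusted p under 0.05. Fits without the filter test more genes; otherwise the cause was not tested. Rescaling by the median ratio or by quantiles raised the median of all genes by 0.10 to 0.11 on the log2 scale in NE against control. The replicate numbers did not pair the libraries: same-numbered libraries correlated at -0.23 to 0.08 over the 3 comparisons in their deviations from the group means. With the replicate number as a block, 0 of the 34 genes passed the threshold in any comparison (0 also without the block in brimonidine against NE), where 0%, 0.0188% and 0% of all genes were higher in NE against control, brimonidine against control and brimonidine against NE. Gbp2 in NE against control ranged from 0.90 to 1.77 when 1 library was left out. With 3 controls, of which control 2 stood apart, calls near the threshold depended on single libraries.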
